A study of Arabidopsis thaliana with 134 samples.

Results

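Recombinant inbred lines (RILs) of Arabidopsis thaliana from the accessions Tnz-1 and Ws-2 were divided by how much of the Tnz-1 expression state they carried, and the lines at either end were compared. For each of the 65 RILs, calls were made at 911 marker genes, of which 292 were higher in Tnz-1 and 619 in Ws-2 by at least 3 units of log2(TPM + 1) in both conditions. A call was the side of the parental midpoint on which the line lay, and the share of calls on the Tnz-1 side ranged from 1.81% to 61.1% (mean 26.5% ± 14.2, SD, n = 65). The 16 lines with the highest share (39.2% to 61.1%, median 42.04%) are called high-share lines below, and the 16 with the lowest (1.81% to 13.6%, median 8.56%) low-share lines. The groups were chosen by these shares, which are therefore a description. Just inside and just outside the limits lay line 56 at 39.2% and line 48 at 39.1%, and line 57 at 13.6% and line 21 at 13.996%, so the edges of both groups are not gaps. In 14 of the 16 high-share lines the share was below 50%, so that most calls were still on the Ws-2 side.

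Each line gave 1 library from the dark and 1 from extended light, and each parent likewise, so that the 64 libraries of both groups came from a series of 134. All were whole seedlings of 12 days, grown from clusters of seeds on MS medium with sucrose at 8 h of light and 16 h of dark. Harvest was at zeitgeber time (ZT) 10 h, that is, 2 h after lights-off for the dark group, while the extended-light group had been left in the light for those 2 h. The dark and the light plants stood in separate cabinets, so an effect of light and one of the cabinet cannot be told apart. A library is 1 pool of seedlings of 1 inbred line, and the parents were not replicated. In whole seedlings, fewer cells of a type and less RNA per cell cannot be told apart. The labels write the lines as WT with a number, and the genotype of a line was not given beyond this.

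In a RIL population each line is fixed for a different mosaic of the parental genomes. A gene whose level depends on its own allele then follows the genotype at its own position, whereas a gene controlled from elsewhere follows the genotype there. When light ends, seedlings lose photosynthetic sugar, and genes for amino acid breakdown and asparagine synthesis rise, while light keeps them low and holds up genes for the photosynthetic antenna.

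The groups were not spread evenly over the line numbers. In the ranges 1 to 19, 21 to 39, 40 to 57 and 58 to 78 there were 1, 3, 7 and 5 high-share lines and 7, 5, 1 and 3 low-share lines. The labels give the numbers no meaning as a batch, and what the ranges stand for was not tested. Values with the range as a covariate are therefore printed beside the results. Within the low-share group lines 12 and 23, with shares of 7.52% and 5.93%, had equal calls at 96.98%, so these are not fully separate genotypes. Lines 3 and 4 had equal calls at 96.0%, but their shares were only 2.69% and 1.81%. Nearly all their calls were on the Ws-2 side, so equality this high does not show that lines 3 and 4 are related. Genes listed at 0 in the dark numbered 8349 to 9154 in the high-share and 8023 to 10268 in the low-share libraries of 28775 genes. In the light they numbered 8288 to 10459 and 8211 to 9153. The libraries of the high-share lines 50 and 56 in the light, at 10397 and 10459, and of the low-share line 27 in the dark, at 10268, stood apart from the rest, which reached at most 9968 in the dark and 9350 in the light over the 65 lines. The results below are therefore also given without these 3 lines, an alternative chosen after seeing the data.

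**Figure D1:**
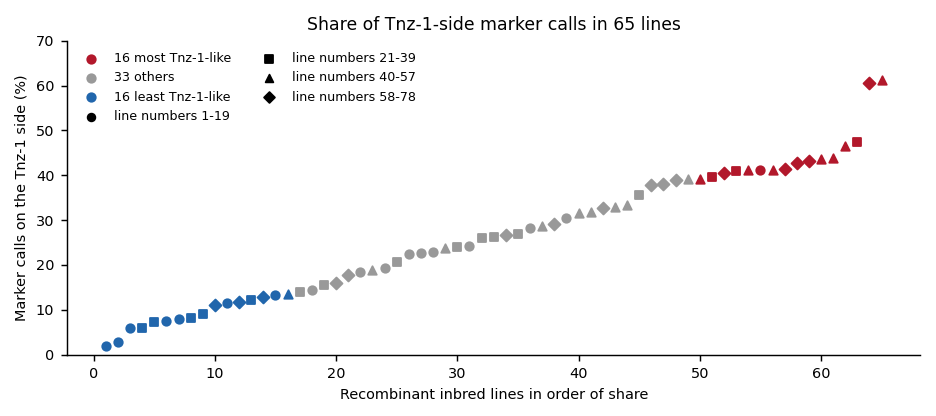
Share of marker calls on the Tnz-1 side (y, percent) for the 65 lines in order of share (x), coloured by group and with a symbol for each range of line numbers. The 16 low-share lines reach 13.6% and the 16 high-share lines start at 39.2%, with most circles (lines 1 to 19) to the left and most triangles (lines 40 to 57) to the right.

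The groups differed unevenly along the genome. By chromosome, the Tnz-1 side took 41.3%, 50.3%, 26.1%, 52.9% and 51.1% of calls on chromosomes 1 to 5 in the high-share lines and 11.3%, 12.0%, 2.32%, 10.8% and 7.94% in the low-share lines. Chromosome 3 was mostly on the Ws-2 side in both groups. Among blocks of locus numbers, the widest gap lay in AT5G10000, where 32 markers averaged 71.5% in the high-share and 0.781% in the low-share lines. In AT4G10000 the 51 markers averaged 69.1% and 3.00%. In AT4G30000 the 23 markers hardly separated the groups, at 33.02% and 27.45%.

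**Figure D2:**
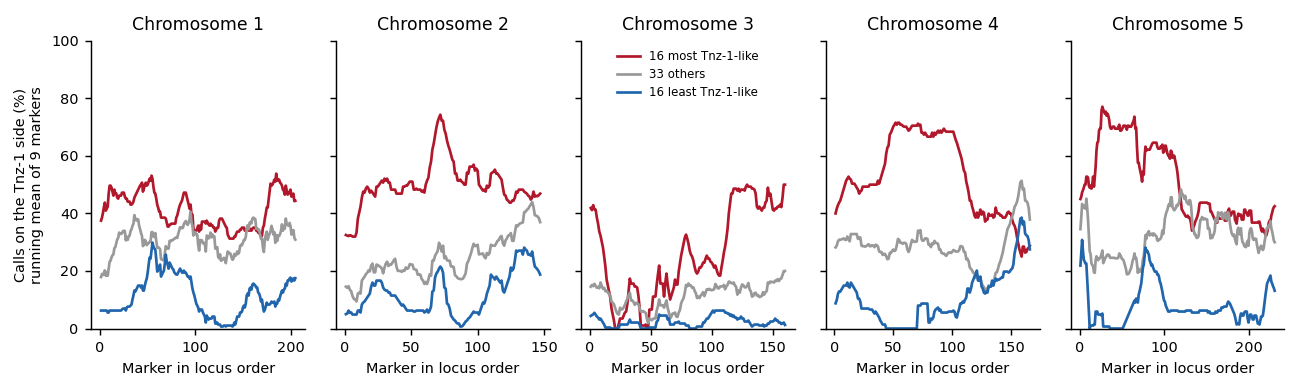
Running mean over 9 markers of the share of calls on the Tnz-1 side (y, percent) along each chromosome in the order of locus numbers (x). The high-share lines lie near 70% in the middle of chromosome 4 and the first part of chromosome 5, where the low-share lines are near 0%, and the lines converge at the end of chromosome 4.

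To ask how the share of Tnz-1 went with expression outside the markers, the dark libraries of both groups were compared at 17200 genes that are not markers and had a mean of at least 1 TPM over the RILs. In the high-share lines 3665 genes were higher (21.3%) and 1377 lower (8.01%), together 5042 (29.3%) at an adjusted p under 0.05 (limma, Benjamini-Hochberg). With the range of line numbers as a covariate, 1952 were called (11.3%), 1313 higher and 639 lower, of which 1911 were among the 5042. The direction depended on scaling: after median-of-ratios scaling the calls were 2144 higher and 2032 lower, so that 24.3% of genes were called and 51.3% rather than 72.7% of calls were higher. The excess of higher genes is therefore not stated as a result. Without lines 27, 50 and 56 the count was 4698 (27.3%), of which 4292 were among the 5042.

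The signs of the called genes were set beside those of the parents. The lines were chosen by Tnz-1-side calls at markers in these same libraries. Agreement of signs with the parents is therefore in part built in, and is a description. Where the parents differed by at least 1 log2 unit in the same direction in both conditions, 1215 of 3055 genes were called, and 1190 of these (97.9%) had the sign of Tnz-1 minus Ws-2, beside 91.2% of all 3055. Over all classes 91.9% of called genes and 76.8% of the genes tested had that sign. Of the 624 called genes with a difference of at least 1 log2 unit, 254 were higher and 370 lower in the high-share lines, and 615 had the parental sign. Where the parents differed by less than 1 log2 unit in both conditions, 2952 of 11558 genes were called, with a median absolute difference of 0.29. Those small differences split into 2447 higher and 505 lower, against 1203 and 1004 after median-of-ratios scaling. By position, 60.2% of the tested genes in AT4G10000 and 53.5% in AT5G10000 were called, against 20.1% in AT4G30000.

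**Figure D3:**
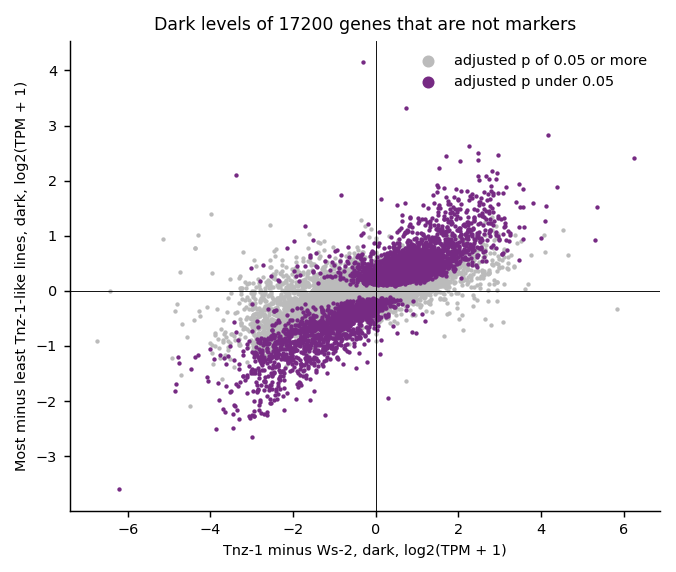
Dark difference between high- and low-share lines (y, log2(TPM + 1)) against the dark difference between the parents (x, same scale) for the 17200 genes, with genes at an adjusted p under 0.05 in purple. Most purple points lie in the lower left and the upper right, and AT5G02160 and AT5G01350 stand at the top at parental differences of -0.30 and 0.72.

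The highest differences upward belonged to genes on chromosomes 3 to 5. ACX1, a peroxisomal acyl-CoA oxidase with a part in jasmonate synthesis, ran from 2.18 to 52.1 TPM in the high-share lines (median 22.9) and from 0.81 to 3.42 TPM in the low-share lines (median 1.62). Of the high-share lines, 12 were above every low-share line, and Tnz-1 stood at 31.1 and Ws-2 at 4.78 TPM. The log2 difference was 2.50 ± 0.34 (SE, adjusted p = 9.1e-06, limma) and 2.82 with the covariate. AT4G13200 had 6.72 to 131 TPM (median 95.7) against 5.74 to 15.6 (median 11.9), a log2 difference of 2.37 ± 0.34 (SE). AT4G10130, AT4G15700 and AT3G21380 were likewise higher, with log2 differences of 2.47, 2.45 and 2.63, each with the parental sign. AT3G62450 was listed at 0 in 9 high-share and 15 low-share lines and in Ws-2, and reached 158 TPM among the others. Its difference of 2.41 lost the call with the covariate (adjusted p = 0.13, limma).

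The 8 genes named for the widest downward differences lie on chromosomes 4 and 5, except AT2G27385. All genes called lower numbered 214, 241, 172, 251 and 498 on chromosomes 1 to 5, of 4493, 2656, 3411, 2559 and 3992 tested. AAP2, an amino acid permease of the phloem, ran from 3.18 to 147 TPM (median 17.615) in the high-share lines and from 117 to 199 TPM (median 164) in the low-share lines. In 14 of 16 high-share lines it was below every low-share line, and its log2 difference was -2.66 ± 0.37 (SE, adjusted p = 9.3e-06, limma), or -2.73 with the covariate. MYB6, a transcription factor of the R2R3 MYB family, had medians of 0.895 and 22.2 TPM and a log2 difference of -2.51 ± 0.47 (SE). In 3 high-share lines MYB6 was above the low-share median, so single lines departed from their group. AT2G27385, AT4G14020, AT5G17530, AT4G16790 and AT4G14620 fell by 2.27 to 2.48 on the log2 scale, with medians of 0.22 to 39.8 TPM in the high-share and 11.6 to 604 TPM in the low-share lines. AT4G14620 shares its values exactly with an overlapping gene, so its level cannot be assigned to one of them.

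RBCS1B, one of the genes for the small subunit of Rubisco, had the lowest difference of all. It ran from 6.46 to 2349 TPM (median 20.2) in the high-share lines and from 82.0 to 2049 TPM (median 1602) in the low-share lines. The values formed a low and a high class in the high-share group, with 9 lines below every low-share line and 2 above. Tnz-1 had 27.5 and Ws-2 2113 TPM. The log2 difference was -3.60 ± 0.91 (SE, adjusted p = 0.0038, limma). The Rubisco small-subunit genes are close paralogs, and how shared reads were divided is not given in the sources used here, so its level is uncertain.

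A further set differed between the groups although the parents differed little in the dark. The leading case was AT5G02160, which in the high-share lines ran from 933 to 2166.25 TPM (median 1619) and in the low-share lines from a listed 0 to 2001 TPM (median 775), with Tnz-1 at 893 and Ws-2 at 1101 TPM. AT5G01350, with 91.5 to 208 TPM in the high-share lines, ran from a listed 0 to 139 TPM in the low-share lines. Tnz-1 and Ws-2 had 151 and 91.45 TPM of AT5G01350 in the dark, and 196 and 94.3 TPM in the light. It is therefore not in the class with parental differences under 1 log2 unit in both conditions. NDP1 (AT5G02130) had medians of 7.66 and 2.31 TPM. The log2 differences were 4.15 ± 1.22, 3.31 ± 0.74 and 1.67 ± 0.31 (SE), with adjusted p of 0.011, 0.0014 and 0.00020 (limma). All 3 differences lie in part on the pseudocount. AT5G02160 was listed at 0 in 5 low-share lines and AT5G01350 in 6. NDP1 was at most 0.44 TPM in the 6 low-share lines where it was lowest.

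Each of these genes fell into a class near 0 and a class with expression, in the same lines. In 12 of the 65 lines each of AT5G02160, AT5G01350 and NDP1 was below 10% of its median over lines in both the dark and the light library, and the 12 lines were the same for all 3 genes. AT5G02160 reached at most 1.20 TPM in the dark and 6.84 TPM in the light in these 12, and at least 219 and 209 TPM in the other lines. Of the 12, 6 were low-share lines (3, 12, 15, 23, 57 and 71), 6 were among the 33 others (1, 11, 16, 18, 26 and 65) and 0 were high-share lines. AT5G02150, the neighbouring locus number, was low in the same 12 lines, with Tnz-1 at 7.79 and Ws-2 at 50.6 TPM in the dark, whereas AT5G02140 was low in 25 lines, of which 6 were among the 12. Both parents had the transcripts of the first 3 genes, so the class near 0 was seen in neither parent. Without the 6 low-share lines the log2 differences between the groups were 0.40 for AT5G02160 (adjusted p = 0.30, limma), 1.06 for AT5G01350 (adjusted p = 0.0024) and 0.83 for NDP1 (adjusted p = 0.0037). Some of the 12 are near-identical pairs (1 and 11, 12 and 23, 18 and 57).

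Other genes with like parents were shifted more evenly. EMB3135, named for an embryo-defective mutant, ran from 11.8 to 54.5 TPM (median 20.6) in the high-share and from 43.0 to 71.8 TPM (median 56.8) in the low-share lines, and the parents at 34.97 (Tnz-1) and 40.93 TPM (Ws-2). In 14 of 16 high-share lines it was below every low-share line (log2 difference -1.29 ± 0.14 SE, adjusted p = 1.1e-06, limma). RGTB1, a beta subunit of the Rab geranylgeranyl transferase, had medians of 26.3 and 69.2 TPM and a log2 difference of -1.23 ± 0.14 (SE). OPT7, of the oligopeptide transporter family, AT4G13540 and AT5G09760 were lower by 0.96 to 1.01 on the log2 scale. Upward, DELTA-VPE, a vacuolar processing enzyme known from the seed coat, had medians of 17.9 and 4.37 TPM (log2 difference 1.56 ± 0.37 SE). DSEL, a lipase, had medians of 10.4 and 4.06 TPM, and AZI1, a lipid-transfer-like protein of systemic immunity, 6.54 and 1.49 TPM. Of these, only AZI1 lost the call with the covariate (adjusted p = 0.19, limma), and it did so without lines 27, 50 and 56 (adjusted p = 0.055).

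**Figure D4:**
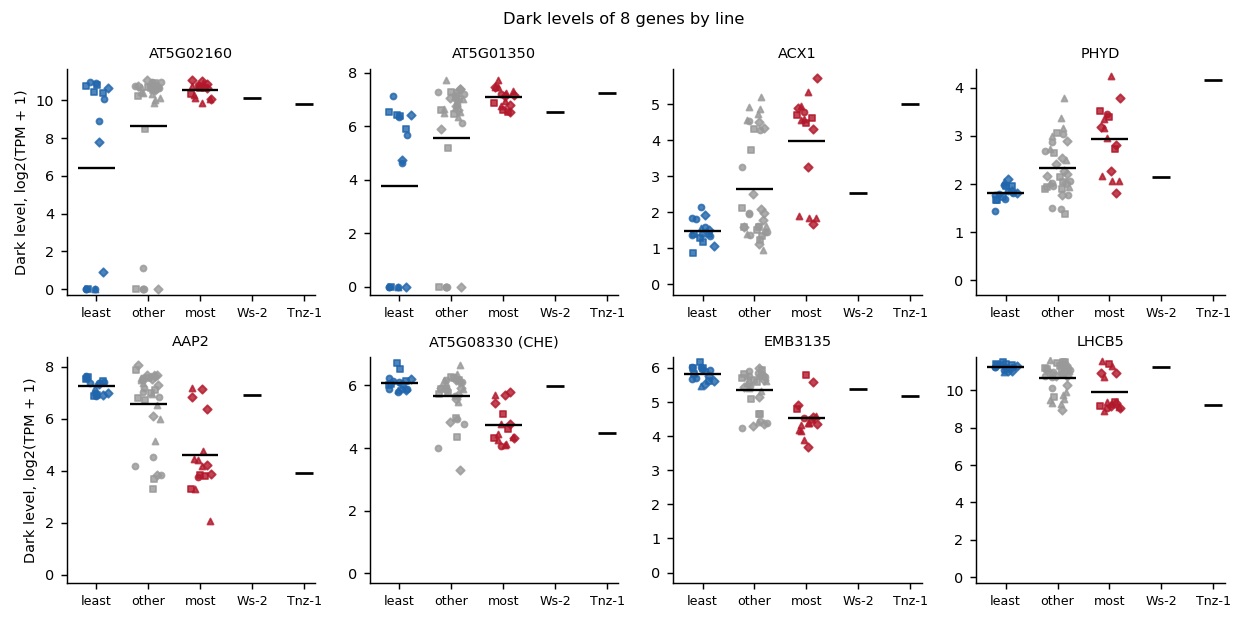
Dark level (y, log2(TPM + 1)) of 8 genes in each line of the low-share (blue), other (grey) and high-share (red) lines, with group means as bars and the parents as single dashes. Symbols are the ranges of line numbers (circles 1 to 19, squares 21 to 39, triangles 40 to 57, diamonds 58 to 78). AT5G02160 and AT5G01350 are near 0 in 6 low-share and 6 other lines, and CHE (AT5G08330) is lower in all 16 high-share lines than in any low-share line.

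Of 22 clock genes tested, 2 were higher and 6 lower in the high-share lines in the dark, and 3 were called with the covariate, so 8 and 3 of 22 stood beside 29.3% and 11.3% of all genes. Without lines 27, 50 and 56 they were 2 and 4, beside 27.3% of all genes. After median-of-ratios scaling 0 clock genes were higher and 7 lower, beside 24.3% of all genes. AT5G08330, the TCP factor CHE that represses CCA1, ran from 15.9 to 54.2 TPM (median 22.1) in the high-share lines and from 54.8 to 105 TPM (median 64.98) in the low-share lines. The groups did not overlap, and Tnz-1 and Ws-2 stood at 21.4 and 62.3 TPM. Its log2 difference was -1.34 ± 0.16 (SE, adjusted p = 2.3e-06, limma) and -1.35 with the covariate. COR27, a cold- and clock-regulated gene, had medians of 157 and 266 TPM (log2 difference -0.56 ± 0.12 SE, with the covariate -0.42, adjusted p = 0.040, limma). AT5G52660, of the REVEILLE family, was 0.24 higher. Its call was kept with the covariate (adjusted p = 0.022, limma) but lost after median-of-ratios scaling. AT4G33980 (COR28, related to COR27), the F-box photoreceptor genes LKP2 and ZTL, and RVE1 were lower by 0.26 to 0.86 and PRR3 was 0.25 higher. These calls were lost with the covariate, and that of PRR3 also after median-of-ratios scaling. Those of LKP2 and RVE1 were lost without the 3 lines too (adjusted p = 0.065 and 0.083, limma).

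PHYD, a red-light receptor for which Wassilewskija accessions are known to carry a loss-of-function deletion, was higher in the high-share lines. It ran from 2.51 to 17.9 TPM (median 7.34) against 1.73 to 3.32 TPM (median 2.52), with Tnz-1 at 16.9 and Ws-2 at 3.44 TPM. In 13 of 16 high-share lines it was above every low-share line (log2 difference 1.11 ± 0.18 SE, adjusted p = 4.3e-05, limma; 1.17 with the covariate). PHYC, another phytochrome, had medians of 5.10 and 26.9 TPM, with low and high values in both groups. Its log2 difference of -1.24 ± 0.35 (SE) did not keep its call with the covariate (adjusted p = 0.059, limma). PIL6, also called PIF5, a growth-promoting bHLH factor, had medians of 20.4 and 33.1 TPM and PHYA 169 and 212 TPM, and both were lower only without the covariate. In all, 2 of 15 photoreceptor and PIF genes were higher (PHYD and CRY2) and 3 lower, and 1 was called with the covariate. These 5 and 1 of 15 stood beside 29.3% and 11.3% of all genes. After median-of-ratios scaling 1 of the 15 was higher and 3 lower, beside 24.3% of all genes.

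LHCB5, a minor antenna protein of photosystem II, ran from 479 to 3024 TPM (median 650) in the high-share and from 2014 to 2899 TPM (median 2473) in the low-share lines. It was below every low-share line in 13 of 16 high-share lines (log2 difference -1.34 ± 0.25 SE, adjusted p = 0.00021, limma; -1.40 with the covariate). It was 1 of 2 called among 16 antenna and Rubisco genes in the dark, beside 29.3% of all genes. With the covariate LHCB5 was the 1 called of these 16, beside 11.3% of all genes. The summed level of these 16 shoot markers was 36920 to 53456 TPM in the high-share and 39942 to 52150 TPM in the low-share dark libraries. For 9 root markers the sums were 20.2 to 183 and 55.02 to 209.83 TPM, so both organs were present in both groups.

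In the metabolic lists the counts are read beside the 29.3% of all genes called in the dark, 21.3% higher and 8.01% lower. Of all dark calls 72.7% were upward. With the covariate 1 of 7 flavonoid, 1 of 9 glucosinolate and 0 of 8 nitrate genes were called, beside 11.3% of all genes. Of 7 flavonoid genes tested, 5 were higher, among them the chalcone synthase TT4 (medians 19.6 and 10.7 TPM), TT5, FLS1, UGT78D1 and F3H. F3H, a flavanone hydroxylase, was 0.80 ± 0.18 (SE) higher on the log2 scale and was the one called with the covariate. Of 9 aliphatic glucosinolate genes, 5 were higher, including the regulator MYB28 (medians 8.22 and 3.35 TPM) and the enzymes BCAT4, CYP79F1, CYP79F2 and CYP83A1. AT2G31790 of that list was lower, with medians of 8.27 and 42.5 TPM, and CYP83A1 was the one called with the covariate. NIR1, nitrite reductase, and WR3 (NRT3.1) were higher and GS2, the plastid glutamine synthetase, lower among 8 nitrate genes, and 0 of the 8 were called with the covariate. The list medians of the dark log2 difference were 0.68 for flavonoid, 0.54 for glucosinolate and 0.16 for nitrate genes, beside 0.08 for all genes tested. After median-of-ratios scaling, 4 flavonoid genes were higher and 0 lower, 4 glucosinolate genes higher and 1 lower, and 1 nitrate gene higher and 1 lower. Without lines 27, 50 and 56, FLS1 and CYP79F2 lost their calls (adjusted p = 0.062 and 0.088, limma).

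Of 9 salicylic acid genes and of 9 flowering genes, 2 each were called, beside 29.3% of all genes. PBS3, needed for salicylic acid synthesis, had medians of 2.40 and 0.285 TPM (log2 difference 1.32 ± 0.28 SE), and SAG101 was 0.32 lower. With the covariate PBS3 had 0.92 and lost its call (adjusted p = 0.060, limma), and SAG101 had -0.36 (adjusted p = 0.045, limma). The floral repressors AGL31 (MAF2) and SVP were 0.35 higher and 0.41 lower. With the covariate they had 0.15 (adjusted p = 0.45, limma) and -0.43 (adjusted p = 0.064, limma), and 0 of the 9 flowering genes were called. Among 7 heat shock genes AT1G59860 was higher, and among 6 root genes EXPA7, a root-hair expansin, was higher. Both calls were lost with the covariate (adjusted p = 0.42 and 0.28, limma) and without lines 27, 50 and 56 (adjusted p = 0.065 and 0.061, limma). After median-of-ratios scaling 0 heat shock genes were called and 0 root genes higher, with 1 root gene lower. Of 6 cold and 9 auxin genes, 0 were called in the dark. All 11 seed storage genes listed were markers themselves, so they helped to choose the lines. Their calls were on the Tnz-1 side in 34.4% of cases in the high-share and 7.39% in the low-share lines, and their summed dark level was 39.9 to 17400 TPM (median 1616) and 5.38 to 831 TPM (median 266). The part of seed remnants in the other results was not tested.

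The second question was whether the response to 2 h of extended light differed. The within-line change, extended light minus dark, differed in 582 of 17200 genes (3.38%), with 378 higher (2.2%) and 204 lower (1.19%) in the high-share lines. This split depended on scaling, since after median-of-ratios scaling 597 were called (3.47%), 312 higher and 285 lower, or 52.3% rather than 64.9% higher. With the covariate 3 genes were called (0.0174%), against 1334 at an unadjusted p under 0.05. Leaving out the 6 low-share lines without AT5G02160, which was chosen after seeing the data, gave 35 (0.203%), while the dark count without them was 3398 (19.8%). Without lines 27, 50 and 56 the light change count was 307 (1.78%), 206 higher and 101 lower, of which 280 were among the 582. Of 44 changes of named genes called with all lines, 26 lost the call without these 3 lines. A higher change means a stronger rise or a weaker fall.

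The differences were set beside the light response of the 33 lines in neither group. Of the 582 called genes, 449 (77.1%) had a difference against that response, beside 63.3% of all genes tested. In those 33 lines 967 genes changed by at least 1 log2 unit, 476 up and 491 down, and 120 of the 967 were called between the groups. Of the 84 called genes that fell in light, 80 had the higher change in the high-share lines, with a median change of -1.21 against -1.78 in the low-share lines. Those 80 are 95.2%, beside 81.3% of all 491 that fell. Of the 36 called genes that rose in light, 24 had the lower change in the high-share lines, or 66.7% beside 68.7% of all 476 that rose. The sign of the difference was that of the parents' own difference in change for 482 of the 582 genes (82.8%), beside 60.3% of all genes tested. The lines were chosen by likeness to the parents in these same libraries, with 1 library per parent and condition. Agreement with the parents is therefore in part built in here too, and is a description.

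Of the gene lists, that of sugar starvation held the most calls, 9 of 16 with a higher change and 0 with a lower one, beside 2.2% and 1.19% of all genes. In the dark 0 of the 16 were higher and 4 lower in the high-share lines, beside 21.3% and 8.01% of all genes. Their median dark difference was -0.24, beside 0.08 for all genes tested, and 0 were called in the dark with the covariate. The part of the dark level in the differences in change was not tested. ASN1, a glutamine-dependent asparagine synthetase induced in the dark, changed by -5.64 to -1.98 log2 units (median -3.72) in the high-share lines and by -7.18 to -2.63 (median -5.20) in the low-share lines. In 15 of 16 high-share lines the fall was smaller than the low-share median, though the groups overlapped. The dark medians were 987 and 1312 TPM, and the light medians 87.77 and 33.97 TPM. The difference in change was 1.68 ± 0.43 (SE, adjusted p = 0.025, limma). SEN1, also named DIN1, a dark-inducible senescence gene, changed by a median of -2.85 and -4.34 log2 units, a difference of 1.59 ± 0.43 (SE). TPS11, a trehalose phosphate synthase family member, had the difference 0.95 ± 0.21 (SE), with dark medians of 81.5 and 221 TPM and light medians of 51.2 and 63.7 TPM. TPS8, TPS9 and TPS10 differed by 0.54, 0.71 and 0.51. For the branched-chain amino acid breakdown genes BCAT-2, MCCA and IVD the differences were 1.11, 0.88 and 0.67. With the covariate the difference was 0.72 for ASN1 and 0.60 for SEN1, and 0 of the 16 were called. Within lines 21 to 39 and 58 to 78, where both groups had at least 3 lines in each range, it was 0.32 for ASN1 and 0.11 for SEN1. Without the 6 low-share lines 0 of the 16 were called. Without lines 27, 50 and 56, 2 of the 16 were called, and the difference was 1.47 for ASN1 (adjusted p = 0.098, limma) and 1.36 for SEN1 (adjusted p = 0.11, limma).

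The sequences upstream of ASN1 and SEN1, the pair with the widest starvation-list differences, are shown for the 250 bases before the annotated gene start in the TAIR10.1 reference from RefSeq (the Columbia genome, not that of either parent). ASN1 is read from chr3:17441432-17441681 on the minus strand and SEN1 from chr4:16944628-16944877 on the plus strand. Capitals mark CACGTG (the G-box), its part ACGTG and TATCCA, searched on both strands.
ASN1: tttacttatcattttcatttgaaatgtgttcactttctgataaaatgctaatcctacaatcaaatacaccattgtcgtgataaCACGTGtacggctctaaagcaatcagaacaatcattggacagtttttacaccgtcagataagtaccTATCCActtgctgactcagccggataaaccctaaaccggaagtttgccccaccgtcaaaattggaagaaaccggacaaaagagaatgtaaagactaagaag
SEN1: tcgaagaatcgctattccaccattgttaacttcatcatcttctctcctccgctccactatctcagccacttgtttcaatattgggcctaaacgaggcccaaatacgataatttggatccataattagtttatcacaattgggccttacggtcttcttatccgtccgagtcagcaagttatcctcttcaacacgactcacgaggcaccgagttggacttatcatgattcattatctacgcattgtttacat
The ASN1 window held 1 CACGTG and 1 TATCCA, and the SEN1 window held none of these letters. CACGTG was found in 6.49%, ACGTG in 22.9% and TATCCA in 13.6% of 27443 windows of the same length before protein-coding genes. ACGTG lies within CACGTG, so these overlap.

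Among antenna genes the calls had the other sign. Of 16 antenna and Rubisco genes, 5 had a lower change in the high-share lines and 0 a higher one. These counts stood beside 1.19% and 2.2% of all genes, and with the covariate 0 of the 16 were called. LHCA1, an antenna protein of photosystem I, changed by -1.06 to -0.14 log2 units (median -0.34) in the high-share lines and by -0.30 to 0.51 (median 0.0048) in the low-share lines. All 16 high-share lines lay below the low-share median, with light medians of 885 and 1539 TPM. The difference was -0.48 ± 0.09 (SE, adjusted p = 0.0030, limma), or -0.37 with the covariate (adjusted p = 0.29). LHCB6 differed by -0.54, LHCB3 by -0.60, LHCA4 by -0.45 and LHCA3 by -0.29. Without lines 27, 50 and 56, 3 of the 16 were called, and LHCA1 had -0.41 (adjusted p = 0.0088, limma). In the parents the difference in change had the other sign for LHCA1, at 0.14, from 1 library per parent and condition. RBCS1B, outside this list, rose by a median of 3.52 log2 units in the high-share and 0.51 in the low-share lines, a difference of 1.84 ± 0.49 (SE). GPRI1, also called GLK1, a factor for chloroplast development, rose by a median of 1.55 log2 units in the high-share and 2.54 in the low-share lines (difference -1.06 ± 0.24 SE).

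The lowest differences in change were taken by the rule for named genes. BGLU18, a beta-glucosidase of ER bodies, changed by a median of -1.13 log2 units in the high-share and 0.25 in the low-share lines (difference -2.08 ± 0.56 SE), and TSA1, an ER-body protein, by -0.58 and 0.42. CYP83A1 of glucosinolate synthesis changed by 0.45 and 2.26, from dark medians of 5.39 and 0.61 TPM to light medians of 9.59 and 7.94 TPM. AOS, the allene oxide synthase of jasmonate synthesis, changed by -0.11 and 1.08, and the glutathione transferase GSTU20 by -0.17 and 1.38. AT3G28220, AT1G24580, AT5G62360 and AT2G34810 had lower changes too, by 0.94 to 1.79. AT5G09672 had the lowest difference, at -3.78 ± 1.04 (SE), from values that varied widely within either condition, and ran from -4.89 to 4.60 log2 units over the high-share lines. Upward, UPB1, a bHLH factor of root growth, changed by 1.18 and 0.02, and GLYI7, a glyoxalase, by -0.29 and -1.69. AT4G16000, AT2G17880 and AT2G39980 had higher changes by 1.19 to 1.21. Of the genes in this paragraph, AT5G09672, BGLU18, CYP83A1, AOS, GSTU20, TSA1, AT5G62360, AT2G34810, UPB1, GLYI7 and AT2G17880 lost their calls without lines 27, 50 and 56.

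In smaller lists, the calls stood beside 2.2% of all genes with a higher change and 1.19% with a lower one. ELF3, LKP2 and AT4G33980 among 22 clock genes had higher changes, by 0.31, 0.24 and 0.63. PHYA had a higher change by 0.54, with all 16 high-share lines above the low-share median, and PHYE a lower one by 0.31, among 15 photoreceptor genes. The auxin-responsive IAA2, GH3.3 and WES1 (GH3.5) had higher changes, by 0.45, 0.75 and 0.56, out of 9 auxin genes. COR47 was higher by 0.56 out of 6 cold genes and CO lower by 0.85 out of 9 flowering genes. Each of these calls was lost with the covariate, and those of LKP2, PHYE, IAA2, GH3.3, COR47 and CO also without lines 27, 50 and 56.

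With the covariate 3 genes passed, and they were named after their values were seen. ERF-1 (AT4G17500), an ethylene-response factor, changed by -0.59 to 1.01 log2 units (median 0.09) in the high-share lines and by -1.17 to -0.26 (median -0.92) in the low-share lines. The dark medians were 21.195 and 26.04 TPM and the light medians 21.9 and 13.5 TPM. Its difference was 0.93 ± 0.12 (SE), or 0.95 with the covariate (adjusted p = 0.011, limma). DHNAT1, a peroxisomal thioesterase of phylloquinone synthesis, changed by medians of 0.98 and 0.13, a difference of 0.84, or 0.80 with the covariate (adjusted p = 0.011, limma). AT5G17780 rose from a median of 1.02 to 5.71 TPM in the high-share lines and from 0.28 to 0.785 TPM in the low-share lines, a difference of 1.11, or 0.99 with the covariate (adjusted p = 0.048, limma).

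The whole response was summed up as a slope, the regression through the origin of a line's changes on the mean changes of the 33 other lines over the 967 genes. The slope ran from 0.793 to 1.12 (mean 0.922 ± 0.114, SD, n = 16) in the high-share lines and from 0.861 to 1.21 (mean 1.06 ± 0.0871, SD, n = 16) in the low-share lines, with Tnz-1 at 0.649 and Ws-2 at 1.07. The difference was -0.137 (two-sided permutation test with 100000 resamples, p = 0.00092), or -0.124 without lines 27, 50 and 56 (p = 0.0040). With the range as covariate, permuting within ranges, it was -0.0737 (p = 0.082, permutation test with 10000 resamples). Within the ranges the means were 0.903 (3 lines) and 1.05 (5 lines) for lines 21 to 39, and 1.0035 (5 lines) and 0.993 (3 lines) for lines 58 to 78. For lines 1 to 19 the 1 high-share line had 1.09 and the 7 low-share lines 1.102 on average, and for lines 40 to 57 the 7 high-share lines had 0.847 and the 1 low-share line 1.01.

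**Figure D5:**
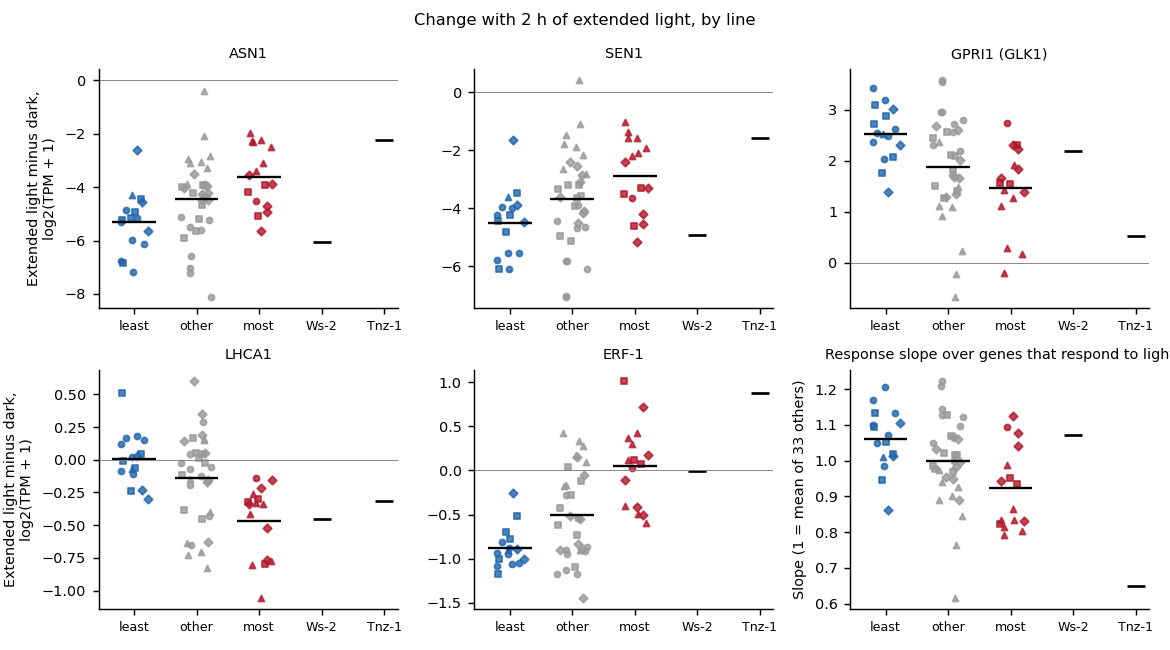
Change from dark to extended light (y, log2(TPM + 1)) of 5 genes, and the response slope (last panel, 1 being the mean of the 33 others), in low-share (blue), other (grey) and high-share (red) lines, with group means as bars, parents as dashes, and symbols by range as circles 1 to 19, squares 21 to 39, triangles 40 to 57 and diamonds 58 to 78. For ASN1 and SEN1 the high-share triangles lie near the top and the low-share circles near the bottom, and for LHCA1 all 16 high-share lines lie below the low-share median.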

How the data were processed

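The authors deposited 1 table of TPM (transcript abundance scaled for length and depth) for 28775 genes in 134 libraries, made from poly(A) RNA with a directional kit, per the labels. The submitters' processing notes name cutadapt 3.4, Salmon 1.6.0, GATK and the TAIR10 build, with no role or order. TPM keeps no read total, so depth is unknown and no counting interval is given. A 0 is given as listed at 0. Gene names came from the TAIR10.1 table, which held 28009 identifiers (97.3%).

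Values were analysed as log2(TPM + 1) with a pseudocount of 1, which understates changes of low genes. The test between groups was that of limma (version 3.58.1, under R 4.3.3; lmFit, then eBayes with trend=TRUE) over the 17200 non-marker genes with a RIL mean of at least 1 TPM, with Benjamini-Hochberg adjustment and calls at an adjusted p under 0.05. Dark levels used 1 library per line. The light change used the difference of both libraries of a line, which the line number pairs because both come from 1 inbred line by label. The marker calls and the tested levels came from the same libraries. The line is the replicate, so p-values measure the spread between lines with 1 pool each. The response slope used a two-sided permutation test. Steps were tested on simulated data with 200 changed genes. Of the genes tested, 85 had values identical to another gene.

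The members, lists, tests and alternatives were chosen with earlier results of these data known. The 16 lines per group follow from the shares, and 14 gene lists with 191 genes (139 tested) were used. Named genes are the 8 called genes with the widest log2 difference in each direction at a RIL mean of at least 5 TPM, plus the 5 per direction with a parental difference under 1 log2 unit (dark) or responsive to light in the 33 other lines (change), plus called list members. Results under other pseudocounts, filters, scalings, group sizes, marker limits, covariates and left-out lines are given at the end.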

Additional observations from a re-analysis of the deposited data

Results flagged for a closer look

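The light change differed between the high-share and the low-share lines in 582 genes, and the response slope by -0.137. Both were tested as a difference between the groups, and neither was kept with the range of line numbers as a covariate, except for 3 genes. Below, each value is the difference in change (high-share minus low-share lines, log2 units).

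Among the named genes with a higher change, the difference was 1.84 for RBCS1B, 1.68 for ASN1, 1.59 for SEN1, 1.27 for UPB1, 1.25 for GLYI7, 1.21 for AT4G16000, 1.20 for AT2G17880 and 1.19 for AT2G39980. Among those with a lower change, it was -3.78 for AT5G09672, -2.08 for BGLU18, -1.79 for AT3G28220, -1.74 for CYP83A1, -1.61 for GSTU20, -1.25 for AT1G24580, -1.25 for AOS, -1.19 for TSA1, -1.06 for GPRI1, -1.03 for AT5G62360 and -0.94 for AT2G34810.

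Among the list genes, the starvation genes TPS8, TPS9, TPS10, TPS11, BCAT-2, MCCA and IVD differed by 0.54, 0.71, 0.51, 0.95, 1.11, 0.88 and 0.67. The antenna genes LHCB3, LHCB6, LHCA1, LHCA3 and LHCA4 differed by -0.60, -0.54, -0.48, -0.29 and -0.45. The clock genes ELF3, LKP2 and AT4G33980 differed by 0.31, 0.24 and 0.63, PHYA by 0.54 and PHYE by -0.31. COR47 differed by 0.56, CO by -0.85, IAA2 by 0.45, GH3.3 by 0.75 and WES1 by 0.56. The genes also called with the covariate were DHNAT1 at 0.84, ERF-1 at 0.93 and AT5G17780 at 1.11.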

How the results depend on the processing

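The dark count was within 1.5 times 5042 under every alternative run other than the range covariate (1952) and the use of lines 21 to 39 and 58 to 78 alone (327), the latter chosen after seeing the data with 8 lines a group. The light change count was 582. It was 3 with the covariate, 1 in those ranges, 35 without the 6 low-share lines near 0 for AT5G02160, 307 without lines 27, 50 and 56, in which over 10000 genes were listed at 0 in a library, 351 with 12 and 1272 with 20 lines a group, 1027 with a marker limit of 2, and 39 with no replicate block, where the pairing of the libraries of a line was ignored. The slope difference was -0.0737 with the covariate (p = 0.082) and -0.0679 in the 2 ranges (p = 0.23, permutation tests). The cause of these shifts was not tested, beyond the smaller number of lines where lines were left out. Leaving out each line in turn gave dark counts of 4547 to 5312, change counts of 405 to 849 and slope differences of -0.151 to -0.127. Of 64 named or listed dark calls, 31 were kept with the covariate and 55 after median-of-ratios scaling. Of 44 light change calls, 3 and 42 were kept. The 3 kept with the covariate were DHNAT1, ERF-1 and AT5G17780, which were entered among the 44 because they passed that test. The other 41 light change calls, named by rule or list, were all lost with the covariate. For these 64 and 44 calls and for the slope no sign was reversed in the alternatives run. The calls were not followed where single lines were left out in turn, and list genes that were not called were not followed. Over all called genes, counted except where single lines were left out in turn, the sign was kept in each alternative other than median-of-ratios scaling (5041 of 5042 dark), lines 21 to 39 and 58 to 78 (5036 of 5042 dark) and a pseudocount of 0.1 (581 of 582 light change). Precision is limited by 1 library per line and condition and by the uneven ranges.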
